A study of Mus musculus with 6 samples.

Results

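The genes described here encode netrin-1, its receptors and 2 secreted or membrane-anchored proteins that act on the same receptors: Ntn1, Dcc, Neo1, Dscam, Unc5a, Unc5b, Unc5c, Unc5d, Draxin and Rgma. They were chosen by name, and every probe set annotated to 1 of these symbols alone was taken. All 10 were found, on 11 of the 28815 probe sets of the table, with 1 probe set for each of 9 genes and 2 for Unc5d. Mouse embryos of embryonic day 11.5 gave the RNA, taken in both genotypes from the neck part of the spinal cord after its dorsal part and the floor plate had been left out. By their labels 3 arrays were Nkx2.9 knockout and the other 3 wild type, lettered A to C within each genotype, and values are given in that order. The labels named neither the allele, the strain nor the sex, and did not say whether an array held 1 embryo or a pool. The p-values therefore measure only the spread between these arrays, and the number of arrays limits the precision.

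Netrin-1 is a secreted, laminin-related guidance cue made by the floor plate and by ventral progenitors of the neural tube. Growth cones that carry DCC are drawn towards it, neogenin (Neo1) is the close relative of DCC, and DSCAM is a further netrin receptor of the immunoglobulin superfamily. Receptors of the UNC5 family turn the response into repulsion, alone or together with DCC, so the mixture of receptors on an axon sets its answer to the same cue. The grouping into attractive receptors (Dcc, Neo1, Dscam) and repulsive receptors (the Unc5 genes) follows these best known roles; DCC and DSCAM also take part in repulsion with UNC5 proteins, and neogenin in repulsion by RGMa. The series asked which genes act downstream of Nkx2.9, a homeodomain factor of ventral progenitors, in the motor neurons of the spinal accessory nerve, which send their axons out dorsally, through a lateral exit point.

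None of the 11 probe sets passed a test for a difference between the genotypes. Across the table limma called 0 probe sets at an adjusted p under 0.05 (0%), and 0 of the 11 passed. At an unadjusted p under 0.05 the share of the table was 5.57%, and again 0 of the 11 passed. The lowest adjusted p among them was 0.812 and the highest 0.976 in limma, with Benjamini-Hochberg adjustment over all probe sets. The 2 groups overlapped in all 11, while over the table they did not overlap in 10.9% of probe sets. The difference was below 0 in 8 of the 11, against 45% of the table, with a median of -0.094 on the log2 scale, against 0.0087 over all probe sets. Those 8 include both probe sets of Unc5d. All but Unc5a and Unc5c had their lowest value on knockout-labelled array C. Without that array all but 1 of the Unc5d probe sets still had a difference below 0, as shown gene by gene.

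Values are log2 expression, each probe set having been centred before deposit on its own median over all arrays. A value of 0 thus marks the middle of the 6 arrays, and neither the level of a gene nor an order of levels among the receptors can be read. For the same reason it could not be checked whether the defining markers of the tissue were present. Nkx2-9 itself was not lower on the knockout-labelled arrays: it stood at -0.071, 0.26 and 0.11 there, against -0.21, 0.071 and -0.11 on the wild-type arrays. That is a difference of 0.18 (SE 0.11; adjusted p = 0.812 in limma). Where its probes lie relative to the deleted part is not given in the sources used here, so this value checks nothing about the labels, and the arrays are called knockout-labelled for that reason. Xist, the RNA of the inactive X, stood at 4.56 and 4.91 on knockout-labelled B and C and between -0.25 and 0.11 on the other 4 arrays. Of the Y-linked genes, Kdm5d was at -3.08 and -3.20 on those same 2 arrays and between -0.028 and 0.13 elsewhere. Knockout-labelled array C also had a median of 1.70 over 9 mesenchyme markers, against -0.074 to 0.17 on the other arrays.

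Promoter sequences were found for 6 of the 10 genes in RefSeq (GRCm38.p6), and are shown for the 3 of them whose values varied most over the arrays, to set beside the values that follow. Each is the 250 bases before the annotated start, on the coding strand. Capitals mark AAGTG on either strand (CACTT), the core of the site that NK-2 homeodomain proteins bind.
Dscam, chr16:97170736-97170985, minus strand: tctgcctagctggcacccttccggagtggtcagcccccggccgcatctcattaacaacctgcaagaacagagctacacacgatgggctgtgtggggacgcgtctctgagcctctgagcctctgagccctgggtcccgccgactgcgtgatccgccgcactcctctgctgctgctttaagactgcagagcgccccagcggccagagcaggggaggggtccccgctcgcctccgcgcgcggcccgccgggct
Unc5c, chr3:141465314-141465563, plus strand: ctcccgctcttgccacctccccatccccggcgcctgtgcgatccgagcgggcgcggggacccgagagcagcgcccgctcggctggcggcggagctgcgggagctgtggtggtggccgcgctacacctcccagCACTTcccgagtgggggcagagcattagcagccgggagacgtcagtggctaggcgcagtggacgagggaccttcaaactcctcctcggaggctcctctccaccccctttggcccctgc
Draxin, chr4:148130699-148130948, minus strand: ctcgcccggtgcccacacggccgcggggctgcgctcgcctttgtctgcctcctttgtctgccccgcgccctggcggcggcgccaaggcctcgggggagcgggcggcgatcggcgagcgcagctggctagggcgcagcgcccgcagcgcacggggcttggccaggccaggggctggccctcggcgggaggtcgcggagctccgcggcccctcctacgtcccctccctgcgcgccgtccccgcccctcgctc

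Of the 6 genes only Unc5c had the core in its 300-base window, which also takes in 50 bases after the start. It held 2 copies, beginning 118 bases before the start (capitals) and at base 10 after it. The core is short and common: 46.4% of 32851 promoters of that length held it on either strand. The longer NK-2 site TNAAGTGG was in none of the 6 windows, and 3.21% of all promoters held it on either strand. Every copy of the longer site contains the core. The 6 promoters were rich in G and C, from 68.3% in Unc5c to 82.7% in Neo1, against a median of 52.7% over all promoters. These matches are descriptions of the letters and say nothing of binding.

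Ntn1, the ligand gene, had no difference beyond the spread of its arrays. It stood at 0.018, 0.24 and -0.18 on the knockout-labelled arrays, against 0.044, -0.039 and -0.018 on the wild-type arrays. Knockout-labelled array B was the highest of the 6 and knockout C the lowest, with all 3 wild-type arrays between them. The mean was 0.024 ± 0.21 in the knockout-labelled arrays and -0.0045 ± 0.043 in wild-type arrays (± SD over 3 arrays), a difference of 0.029 (SE 0.11). The 95% interval ran from -0.23 to 0.28, which is from 0.856-fold to 1.22-fold. The difference turned to -0.078 without knockout-labelled array B and was 0.13 without knockout C. Floor plate genes, which mark a source of netrin-1 that was to be left out by dissection, are given beside it. Over 7 measured floor plate markers the median was 0.10, 0.15 and -5.6e-05 on the knockout-labelled arrays, against -0.0096, -0.19 and -0.037 on the wild-type arrays. The difference was above 0 in 6 of the 7, and 4 had an unadjusted p under 0.05, against 6.06% of all 19920 genes, while 0 passed the adjusted threshold in limma. Of these markers 6 were lowest in wild-type B, where Ntn1 itself was the second lowest. Over 9 progenitor markers the median was 0.068, 0.014 and -0.14 on the knockout-labelled arrays, against 0.014, -0.12 and 0.012 on the wild-type arrays. The part of either list in the Ntn1 values was not tested.

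**Figure D1:**
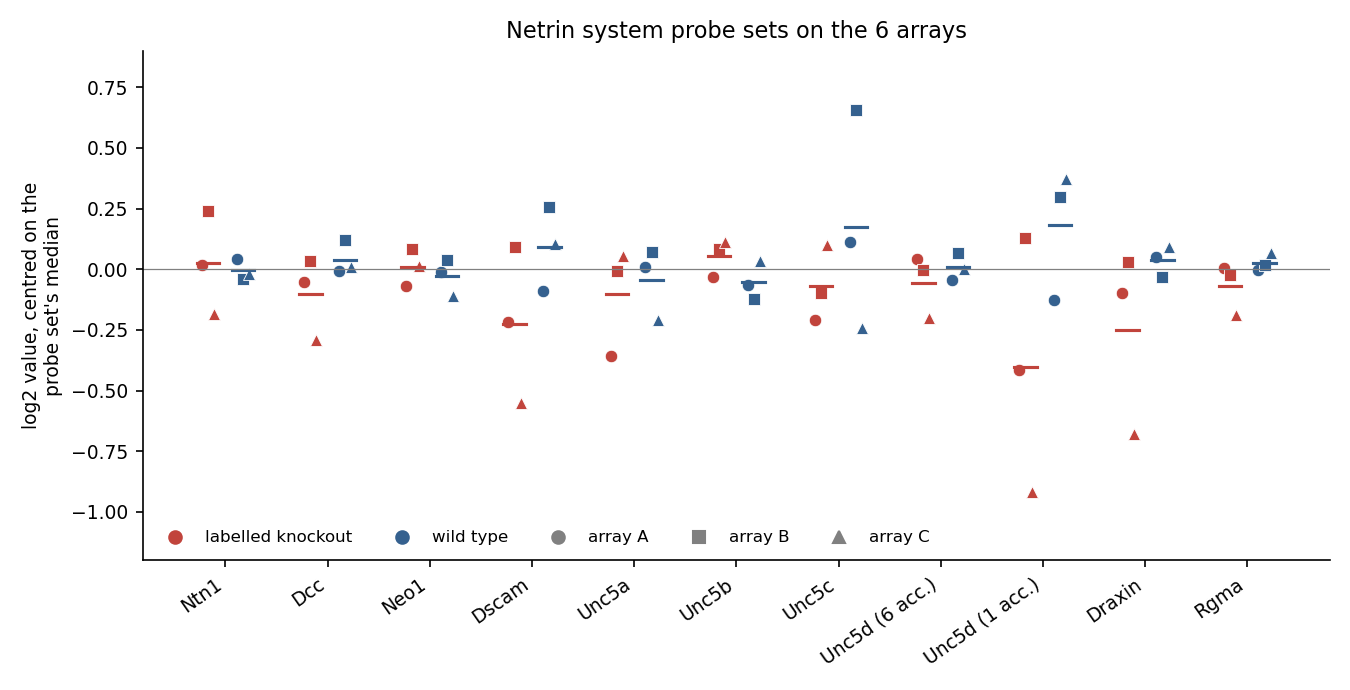
Centred log2 value of each probe set on the 6 arrays, with knockout-labelled arrays in red at the left of each pair and wild type in blue at the right; symbols give the letter and short lines the group means (n = 3 each). Unc5d has 2 probe sets, named by their number of annotated accessions (acc.). The red triangles, knockout C, lie lowest in Ntn1, Dcc, Dscam, both Unc5d probe sets, Draxin and Rgma, and the blue square of wild-type B stands at 0.66 in Unc5c.

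Of the attractive receptors, Dcc and Dscam were lower on average in the knockout-labelled arrays, by differences that did not pass the test, and Neo1 had a difference near 0. Dcc, the receptor through which commissural axons are drawn to netrin, stood at -0.053, 0.035 and -0.29 on the knockout-labelled arrays, against -0.0094, 0.12 and 0.0094 in the wild type. Only knockout C lay far from the rest, 0.24 below the next array. The difference was -0.14 (SE 0.091; 95% interval -0.36 to 0.077; adjusted p = 0.812 in limma), and it was -0.049 without knockout-labelled array C. Given beside it are 6 markers of dI1 commissural neurons, the class known for its use of Dcc. Their median was -0.31 on knockout C and between -0.11 and 0.18 on the other arrays. The -0.11 was in wild-type B, where Dcc was highest, at 0.12. On knockout C 4 of the 6 had their lowest value, while Lhx2 stood at 0.025 and Robo3 at -0.051. The part of these markers in the Dcc values was not tested. In bulk tissue, fewer cells of a type and less RNA per cell cannot be told apart.

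Dscam encodes an adhesion molecule that also serves as a netrin receptor. It had the widest spread of the 3 attractive receptors, with a within-group SD above that of 95.4% of probe sets. Its values were -0.22, 0.091 and -0.55 on the knockout-labelled arrays, against -0.091, 0.25 and 0.11 on the wild-type arrays. Knockout-labelled A and C were the lowest of the 6, while knockout B lay among the wild type. The mean was -0.23 ± 0.32 in the knockout-labelled arrays and 0.090 ± 0.17 in the wild type, a difference of -0.32 (SE 0.17), or 1.24-fold lower. The 95% interval reached from 1.66-fold lower to 1.07-fold higher, so a fall of that size could not be told from no change with 3 arrays in each group. The exact two-sided permutation p was 0.2, and the lowest that groups of 3 allow is 0.1. The difference was -0.15 without knockout-labelled array C and -0.47 without knockout B; in the last case its unadjusted p was 0.0174 and its adjusted p 0.415 in limma, where 9.96% of the table had an unadjusted p under 0.05.

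Neo1 encodes neogenin, the receptor shared by netrins and RGM proteins. Its values were -0.068, 0.085 and 0.011 on the knockout-labelled arrays, against -0.011, 0.037 and -0.11 in the wild type. The difference was 0.038 (SE 0.062), and its 95% interval, from 0.926-fold to 1.14-fold, was the narrowest of the 3 attractive receptors. It turned to -0.0036 without wild-type C.

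The 4 repulsive receptors had 3 genes below 0 and 1 above it, none past the test, and the lowest array differed from gene to gene. Unc5a stood at -0.36, -0.0070 and 0.054 on the knockout-labelled arrays, against 0.0070, 0.072 and -0.21 on the wild-type arrays. The lowest array was knockout A, followed by wild-type C, so that 1 low array of each genotype pulled its group down. Its difference of -0.061 (SE 0.13; adjusted p = 0.949 in limma) turned to 0.067 without knockout-labelled array A and was -0.0036 with wild-type B left out, and -0.14 with either wild-type C or knockout-labelled array C.

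Unc5b, the family member also known from blood vessels, where it marks arteries and sprouting tip cells, was the repulsive receptor with a difference above 0. It had -0.032, 0.085 and 0.11 on the knockout-labelled arrays, against -0.065, -0.12 and 0.032 in the wild type. The 2 highest arrays were knockout C and B, and knockout A lay within the wild-type range. The difference was 0.11 (SE 0.062; adjusted p = 0.812 in limma), with a 95% interval from 0.971-fold to 1.19-fold. It was between 0.071 and 0.15 with any 1 array left out, and 0.020 with a term for the Xist-high arrays. Endothelial markers were high on knockout C as well, where 8 of 9 had their highest value. Their median was 0.63 on that array and between -0.13 and 0.081 on the others. The 0.081 was in wild-type B, where Unc5b was lowest, at -0.12, so the markers did not follow Unc5b at that end. Without knockout C the Unc5b difference was 0.079, and the part of the endothelial markers in the Unc5b values was not tested.

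Unc5c had the largest difference in means among the repulsive receptors measured by 1 probe set, and it rested on wild-type B. Its values were -0.21, -0.098 and 0.098 on the knockout-labelled arrays, against 0.11, 0.66 and -0.24 on the wild-type arrays. Wild-type arrays thus held both the highest and the lowest value, and all 3 knockout-labelled arrays lay between them. The mean was -0.069 ± 0.16 in the knockout-labelled arrays and 0.18 ± 0.45 in the wild type, and the difference was -0.24 (SE 0.22; adjusted p = 0.85 in limma). Without wild-type B it was -0.0044, without wild-type C -0.45 and without knockout-labelled array A -0.18. Wild-type B was also the array with the lowest cell cycle values, with a median of -0.59 over 9 markers against -0.089 to 0.27 elsewhere. All 9 of those markers were lowest there, and 10 of 12 general neuron markers were highest there. On knockout C both lists ran the other way, with 8 of 9 cell cycle markers highest and 10 of 12 neuron markers lowest. Unc5c was not low on that array: it stood at 0.098, the highest of the knockout-labelled values. Whether these markers had a part in the Unc5c values was not tested.

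Unc5d was read by 2 probe sets that gave different sizes of difference. The one with 6 annotated accessions stood at 0.040, -0.0025 and -0.20 on the knockout-labelled arrays, against -0.044, 0.065 and 0.0025 in the wild type. The one with 1 annotated accession stood at -0.42, 0.13 and -0.92 on the knockout-labelled arrays, against -0.13, 0.30 and 0.37 in the wild type. Both were lowest on knockout C, but knockout A was low only in the second. The differences were -0.063 (SE 0.074; adjusted p = 0.892 in limma) and -0.58 (SE 0.27; adjusted p = 0.812 in limma), the second being 1.5-fold lower with a 95% interval from 2.36-fold lower to 1.05-fold higher. That second probe set had the lowest unadjusted p of the 11, at 0.0728, and a within-group SD above that of 99% of all probe sets. Without knockout-labelled array C the 2 differences were 0.011 and -0.33, and without knockout B -0.089 and -0.85. In that last case the second had an unadjusted p of 0.00809 and an adjusted p of 0.358 in limma. In the same fit 9.96% of the table had an unadjusted p under 0.05. The array left out, knockout B, lay within the wild-type range for this probe set, at 0.13. Which part of the transcript each probe set reads is not given in the sources used here, so no single size is given for Unc5d.

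**Figure D2:**
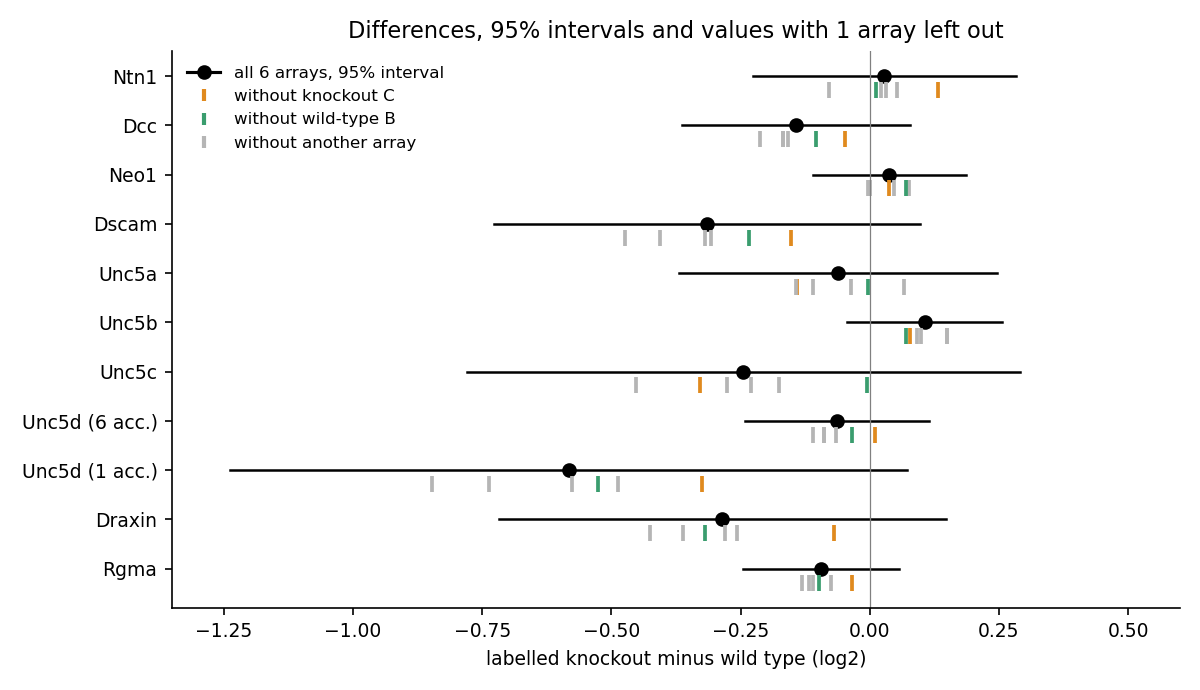
Difference of the knockout-labelled arrays minus wild type (log2, x axis) for the 11 probe sets, with limma's 95% interval (black) and, under each, the 6 values with 1 array left out. Every interval crosses 0. The orange marks, without knockout C, lie nearest to or past 0 in Dcc, Dscam, both Unc5d probe sets, Draxin and Rgma, and the green mark, without wild-type B, does so in Unc5c.

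The remaining genes encode other proteins that act on these receptors. Draxin is a secreted, repulsive guidance protein that binds DCC and netrin-1 and is made in the dorsal cord, which the dissection left out. It stood at -0.097, 0.030 and -0.68 on the knockout-labelled arrays, against 0.048, -0.030 and 0.092 on the wild-type arrays. A gap of 0.58 separated knockout C from the next array, the largest such gap among the probe sets that were lowest there. The mean was -0.25 ± 0.38 in the knockout-labelled arrays and 0.037 ± 0.062 in the wild type, and the difference of -0.29 (SE 0.18; adjusted p = 0.812 in limma) was -0.070 without knockout C. Over 9 markers of the roof plate and dorsal cord the median was -0.042 on knockout C and between -0.021 and 0.025 on the other arrays. The markers did not move together there: Olig3 stood at -0.59, Pax3 at -0.82 and Pax7 at -0.25, while Wnt1 stood at 0.14. Pax3 and Pax7 were lower still in wild-type B, at -0.94 and -0.26. Of the 9, 2 were lowest on knockout C (Olig3 and Gdf7), and the part of these markers in the Draxin value was not tested.

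Rgma encodes the membrane-anchored ligand RGMa, which repels axons through neogenin. It stood at 0.0053, -0.023 and -0.19 on the knockout-labelled arrays, against -0.0053, 0.018 and 0.065 in the wild type. Knockout C was again the lowest, and the other 5 arrays lay between -0.023 and 0.065. The difference was -0.094 (SE 0.062; 95% interval from 1.19-fold lower to 1.04-fold higher), and without knockout C it was -0.035.

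Set side by side, 7 of the 11 probe sets had their lowest value on knockout-labelled array C, where 18.5% of all complete probe sets had theirs. They were Ntn1, Dcc, Dscam, Draxin, Rgma and both of Unc5d. Knockout C also held the highest value in 27.1% of all complete probe sets. Its SD over those probe sets was 0.19, against 0.098 to 0.14 on the other arrays. Wild-type B held the highest value in 5 of the 11, against 18% of the table: Dcc, Dscam, Unc5a, Unc5c and the Unc5d probe set with 6 accessions. General neuron genes had the same array at each end, with 10 of 12 markers lowest on knockout C and 10 of 12 highest in wild-type B. Mesenchyme markers ran the other way on knockout C, where 8 of 9 had their highest value. Among them Twist1 stood at 2.32 and Pdgfra at 1.74 on knockout C, and at 0.86 and 0.21 in wild-type B. Dcn, the exception, went the other way, at -0.24 on knockout C and -2.02 in wild-type B. What part these differences in tissue markers had in the receptor values was not tested.

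**Figure D3:**
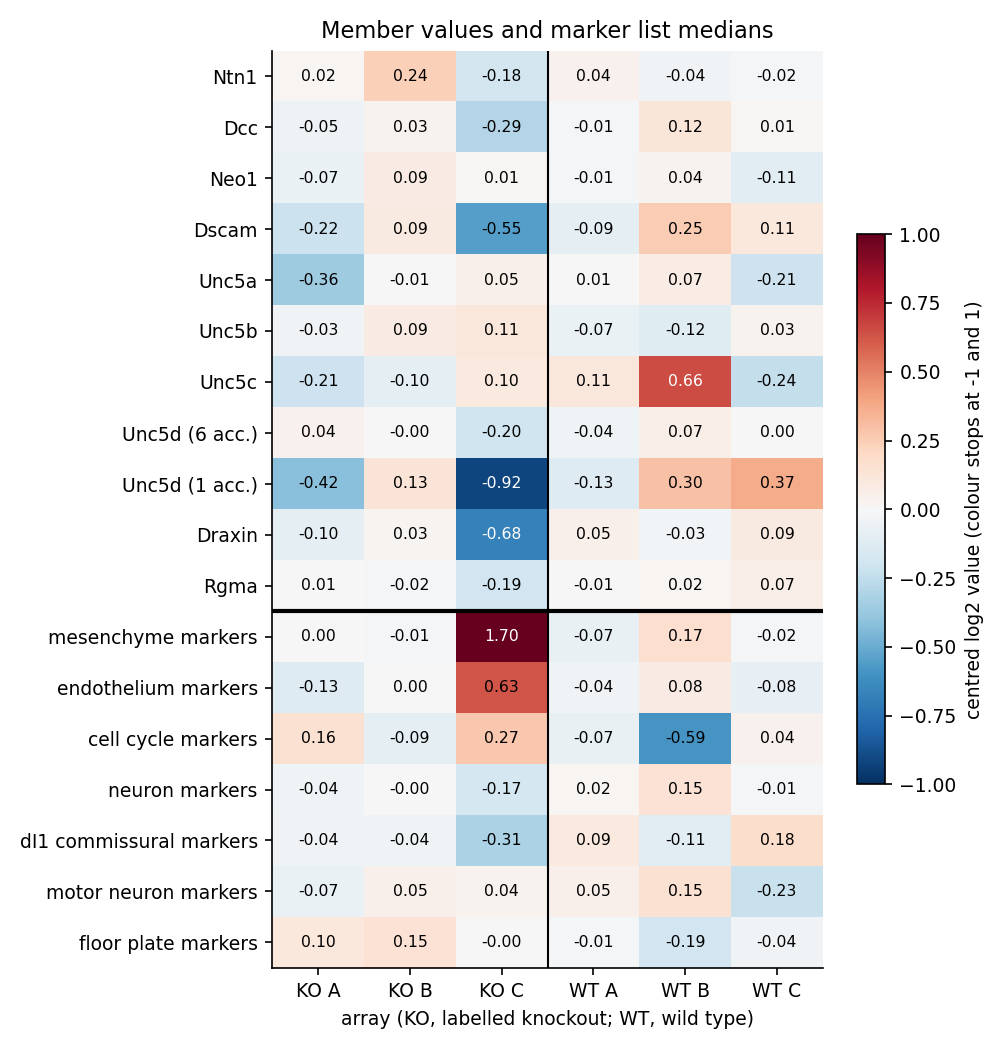
Centred log2 values of the 11 probe sets (above the thick line) and medians of 7 marker lists (below it) on the 6 arrays, knockout-labelled arrays (KO) left of wild type (WT); colour stops at -1 and 1 and each cell prints its value. The KO C column is low in 7 of the 11 probe sets and in neuron and dI1 markers, and high in mesenchyme and endothelium markers.

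Attractive and repulsive receptors were then set against each other on each array, as the mean of Dcc, Neo1 and Dscam and the mean of the 4 Unc5 genes (for Unc5d the probe set with 6 accessions). The attractive mean was -0.11, 0.070 and -0.28 on the knockout-labelled arrays, against -0.037, 0.14 and 0.00085 on the wild-type arrays. The repulsive mean was -0.14, -0.0057 and 0.015 on the knockout-labelled arrays, against 0.0025, 0.17 and -0.10 in the wild type. The 2 kinds of receptor were high together in wild-type B and low together in knockout A, and parted in knockout C, where the attractive mean was lower by 0.29. That gap depended on the probe set taken for Unc5d: with the one of 1 accession the repulsive mean on knockout C was -0.16 and the attractive mean was lower by 0.11. Attractive minus repulsive came to -0.063 ± 0.20 in the knockout-labelled arrays and 0.011 ± 0.081 in wild-type arrays (± SD over 3 arrays). The difference between genotypes of -0.074 lay within either SD, and it had no stable sign. It was -0.14 without knockout-labelled array B and -0.12 without knockout A, but 0.040 without knockout C and 0.016 with Xist-high arrays (2) given a term of their own. With the Unc5d probe set of 1 accession it was 0.056, and with the mean of both -0.0095, alternatives chosen after seeing the data. It is a description of chosen genes and carries no test.

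**Figure D4:**
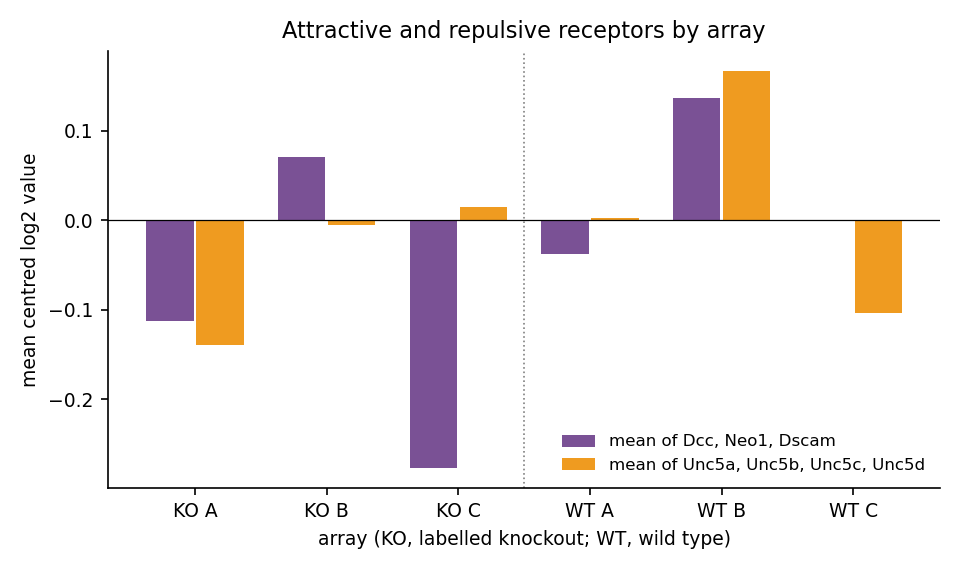
Mean centred log2 value of the 3 attractive receptors (purple) and the 4 repulsive receptors (orange; for Unc5d the probe set with 6 accessions) on each array, knockout-labelled arrays (KO) left of wild type (WT). The purple bar of KO C, at -0.28, is the one furthest from 0, and the bars of WT B stand at 0.14 and 0.17.

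Other genes of the pathway were read from a list of 50, of which 44 could be named on the array. At an unadjusted p under 0.05 there was 1 of 44, against 6.06% of all 19920 genes, and 0 passed the adjusted threshold in limma. The difference was below 0 in 28 and above 0 in 16, with a median of -0.049, against 0.0093 over all genes. Among other ligands, Ntn4 was at 0.10 (SE 0.081) and Ntn5 at 0.10 (SE 0.090), the netrin genes above 0 with the lowest p. Among co-receptors, Lingo1, which encodes a leucine-rich repeat membrane protein of neurons, was the 1 gene under the unadjusted threshold. Its groups did not overlap, which was also the case in 10.9% of probe sets over the table. Lingo1 stood at -0.090, -0.019 and -0.15 on the knockout-labelled arrays, against 0.019, 0.27 and 0.15 on the wild-type arrays. That is a difference of -0.23 (SE 0.075; adjusted p = 0.812 in limma). Inside the cell, Trim67, whose product is a ubiquitin ligase that binds DCC, was at -0.26 (SE 0.11). Pick1, encoding a PDZ protein that binds UNC5A, was at -0.21 (SE 0.098). Both were lowest on knockout C, at -0.34 and -0.28. Dock1, an activator of Rac that works below DCC, was at 0.27 (SE 0.16) and was highest on knockout C, at 0.57. The downstream GTPase genes Rac1 and Cdc42 were at 0.013 (SE 0.039) and -0.099 (SE 0.057), named after their values were seen.

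**Figure D5:**
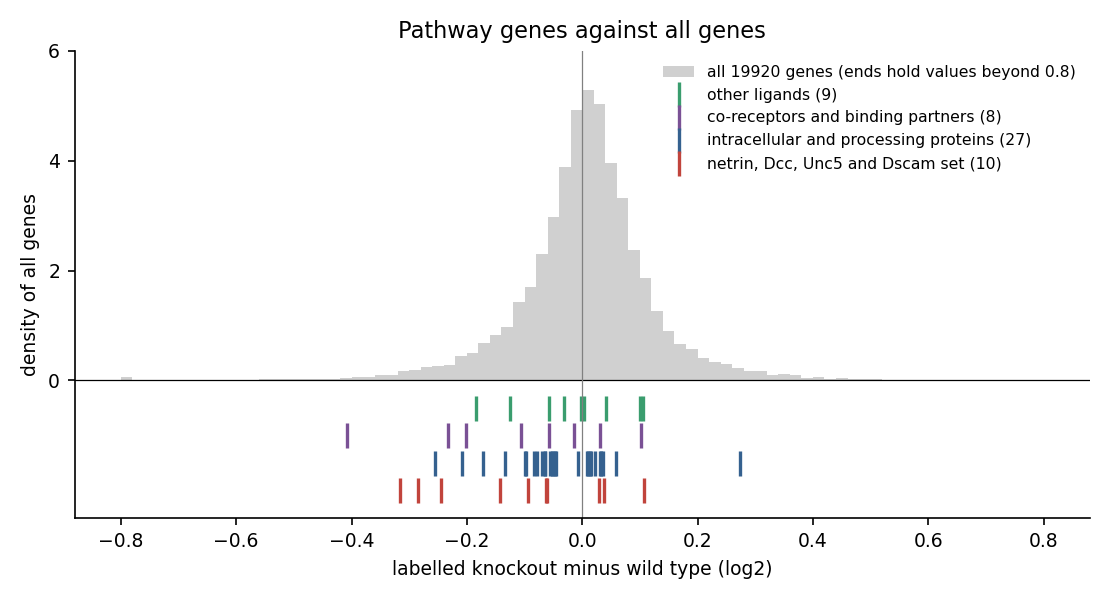
Difference of the knockout-labelled arrays minus wild type (log2, x axis): the grey histogram is the density over all 19920 genes, and the coloured marks under it are single genes of 3 pathway groups and of the netrin, Dcc, Unc5 and Dscam set. The marks lie between -0.41 and 0.27. Some are in its tails: the absolute differences of Dscam and Draxin were above those of 97.3% and 96.3% of probe sets. Their within-group SDs were likewise above those of 95.4% and 95.9% of probe sets. Unc5d is drawn for its probe set with 6 accessions alone.

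The genes whose values were closest to each of 4 receptors or ligands over the 6 arrays were found by the mean absolute difference, among 19919 genes. For Ntn1 they were Rab22a (0.026), Cyb5b (0.030) and Thoc5 (0.030), and for Dcc they were Hdx (0.014), Pde10a (0.022) and Atp6v1b2 (0.023). For Unc5c they were Nrp1 (0.034), Nkain2 (0.060) and Nyap2 (0.062). Nrp1, which encodes the semaphorin and VEGF receptor neuropilin-1, stood at 0.64 in wild-type B, beside 0.66 for Unc5c. For Dscam they were Ehbp1 (0.045), Amph (0.047) and Tmem178b (0.047), and all 3 were lowest on knockout C, between -0.50 and -0.42. With 6 arrays and so many genes some profiles lie close to any other.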

How the data were processed

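Per the labels' protocols, small amounts of total RNA were purified on columns, amplified over the whole transcript to sense cDNA and given a biotin label. The authors deposited log2 values that RMA (robust multi-array average) had produced, according to the submitters' processing notes; its version and settings are not given in the sources used here, and the log base was taken as 2, the base RMA uses. RMA shares 1 distribution between arrays, so a change common to most genes would not show. Each complete probe set had a median of 0 within 5e-07 over the 6 arrays; 24 of 28815 had only 5 values, wild-type C being empty, and were fitted on those.

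Symbols came from the platform annotation: a single symbol stood on 21780 probe sets, several on 1605 and none on 5430, and only the first kind names a gene here. All 10 genes kept their symbol in RefSeq (GRCm38.p6). For lists, the complete probe set with the most accessions stood for a gene.

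The knockout-labelled arrays were compared with the wild type using limma 3.58.1 under R 4.3.3 (lmFit, then eBayes). Genotype was the sole term, with Benjamini-Hochberg adjustment over all probe sets; the script was tested on simulated data. SEs and 95% intervals are limma's, and SDs are over 3 arrays. No filter on low values was applied. The alternatives tried were a replicate block by letter, array weights, quantile normalization, centring each array on its median, a robust prior, an extra term for the Xist-high arrays, 1 probe set per gene, a gene's mean over its probe sets, and omitting each array in turn. Named were all 10 genes, Nkx2-9, up to 3 pathway genes in each direction by p, the 3 genes closest to Ntn1, Dcc, Unc5c and Dscam, and markers given beside a result. The genes, the lists and the tests were chosen with earlier results of these data known. Figures were drawn with matplotlib 3.10.9.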

Additional observations from a re-analysis of the deposited data

How the results depend on the processing

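No probe set of the 10 genes passed an adjusted p of 0.05 in limma under any of 12 alternatives run on all probe sets. Of 133 recomputed differences, 127 kept their sign. That count includes the letter block and the robust prior, which leave every difference as it was and so could not change a sign. With 1 array left out, Ntn1 ran from -0.078 (without knockout-labelled array B) to 0.13, Neo1 from -0.0036 (without wild-type C) to 0.077, Unc5a from -0.14 to 0.067 (without knockout-labelled array A), and the Unc5d probe set with 6 accessions from -0.11 to 0.011 (without knockout-labelled array C), so that each changed sign. A term for Xist-high arrays leaves knockout-labelled array A alone to be set against the wild type. With it Neo1 turned to -0.039 and that Unc5d probe set to 0.032, Unc5a was at -0.32 and Unc5c at -0.38, while Unc5b was at 0.020, Dcc at -0.092, Draxin at -0.13 and Rgma at -0.021. Attractive minus repulsive receptors ran from -0.14 to 0.040 with 1 array left out. The median of the pathway list was -0.080 with that term and between -0.077 and -0.018 with 1 array left out, the last without wild-type B. The mean over both Unc5d probe sets differed by -0.32. Without knockout-labelled array A, 5 probe sets of the table passed the adjusted threshold (0 to 5 over the 6 arrays left out), none of them among the 10 genes. At an unadjusted p under 0.05 there were 1605 in the table, and between 977 (without wild-type B) and 2871 (without knockout B) with 1 array left out. With the letter as a replicate block there were 2552. The labels do not say that a letter pairs the arrays: deviations from the group means correlated at 0.16, 0.22 and 0.016 between same-letter arrays A, B and C, and 4 of 6 arrays correlated best with their own letter. The block changed no call among the 10 genes. Signal over background could not be seen in the centred values.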
